A study of Rattus norvegicus with 4 samples.

Results

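The genes described here encode 9 proteins that make, carry, bind or break down retinoic acid, the signaling form of vitamin A, in the cortex of the newborn rat. They were chosen by name, as Aldh1a1, Aldh1a2, Aldh1a3, Rbp4, Crabp1, Crabp2, Rdh10, Cyp26b1 and Stra6, and each of the 9 had exactly 1 row in every expression file. Those rows are 9 of the 17419 rows listed in at least 1 library and of the 16182 listed in all 4. RNA-seq was performed on 4 libraries of frontal cortex (prefrontal cortex in the paper) of Wistar rats (Wistar Furth in the paper), from pups labeled as postnatal day 1. Dams had received 5000 µg/kg of BPA (bisphenol A) or the vehicle, ethanol in corn oil, by gavage each day from gestational day 1 to birth, and 1 male and 1 female library stand for each treatment (control male, control female, BPA male and BPA female). The methods name 3 pups per sex and treatment, from independent litters, for profiling and for PCR together, but not how they were combined into 1 library, so a difference between libraries may be that between a few animals.

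Retinol travels in blood bound to RBP4 and enters cells through the receptor STRA6. RDH10 oxidizes it to retinaldehyde, which the dehydrogenases ALDH1A1, ALDH1A2 and ALDH1A3 turn into retinoic acid. CRABP1 and CRABP2 hold retinoic acid inside the cell, CRABP2 delivering it to the nucleus, and CYP26B1 oxidizes it for removal. In the developing forebrain, the meninges (the membranes around the brain) are a known source of retinoic acid through Aldh1a2, and Aldh1a3 is known from the lateral ganglionic eminence, the embryonic origin of the striatum. The methods of the study state that the meninges were removed at dissection.

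The promoters of the 4 genes with the lowest log2 ratios of BPA to control, with the sexes combined, are shown first. Each window spans 250 bases before to 50 bases after the start of the gene in RefSeq, build GRCr8, and capitals mark every match on either strand to the motifs searched. These were the TATA box (TATAAA), the GC box (GGGCGG) and 4 half-sites of the retinoic acid receptors, namely AGGTCA (the usual form), then AGTTCA (known from many response elements), then GGGTCA (a looser variant) and last GGTTCA (a further variant). The windows are chr8:80758391-80758690 (plus strand) for Aldh1a2, chr1:245313502-245313801 (minus strand) for Rbp4, chr2:175714612-175714911 (plus strand) for Crabp2 and chr8:67444507-67444806 (plus strand) for Stra6. GC boxes that overlap in Rbp4 and lie side by side in Crabp2 merge into longer runs of capitals.
Aldh1a2: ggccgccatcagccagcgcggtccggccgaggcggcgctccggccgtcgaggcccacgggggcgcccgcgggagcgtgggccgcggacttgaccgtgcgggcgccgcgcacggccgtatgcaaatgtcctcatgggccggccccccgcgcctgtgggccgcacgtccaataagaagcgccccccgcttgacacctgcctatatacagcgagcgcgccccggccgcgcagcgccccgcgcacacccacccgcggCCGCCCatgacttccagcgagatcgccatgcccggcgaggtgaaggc
Rbp4: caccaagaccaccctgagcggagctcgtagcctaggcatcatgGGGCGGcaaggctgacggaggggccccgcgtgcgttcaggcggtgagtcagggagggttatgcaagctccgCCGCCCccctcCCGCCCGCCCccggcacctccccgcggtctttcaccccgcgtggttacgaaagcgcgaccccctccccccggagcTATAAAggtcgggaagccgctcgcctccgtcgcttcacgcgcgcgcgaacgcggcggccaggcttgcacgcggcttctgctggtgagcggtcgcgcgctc
Crabp2: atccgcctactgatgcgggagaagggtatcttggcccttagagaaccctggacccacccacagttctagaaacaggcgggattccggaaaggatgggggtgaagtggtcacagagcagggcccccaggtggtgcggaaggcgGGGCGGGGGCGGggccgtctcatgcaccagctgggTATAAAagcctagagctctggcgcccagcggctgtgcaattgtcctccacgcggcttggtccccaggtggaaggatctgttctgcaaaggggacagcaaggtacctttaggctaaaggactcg
Stra6: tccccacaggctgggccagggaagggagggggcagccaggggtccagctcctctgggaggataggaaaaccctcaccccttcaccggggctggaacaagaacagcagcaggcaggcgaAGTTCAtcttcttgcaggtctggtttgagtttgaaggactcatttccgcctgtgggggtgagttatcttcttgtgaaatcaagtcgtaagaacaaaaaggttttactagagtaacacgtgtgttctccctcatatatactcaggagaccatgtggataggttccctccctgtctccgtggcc
The table of promoters held 8 of the 9 genes, the exception being Rdh10. GC made up 76.0% of the Aldh1a2 window, 71.7% of that of Rbp4, 61.0% of that of Crabp2 and 53.7% of that of Stra6, and the median over 33469 promoters of 300 bases was 51.7%. The TATA box was found in Rbp4 and Crabp2 and in 14.2% of all promoters, and the GC box in 5 of the 8 windows (Aldh1a2, Aldh1a3, Rbp4, Crabp1 and Crabp2) and in 33.1% of all. A half-site was found in 2 of the 8 windows, AGTTCA in Stra6 and GGGTCA in Aldh1a1, and at least 1 of the 4 half-sites in 44.4% of all promoters. No window held 2 half-sites spaced as a direct repeat (DR1, DR2 or DR5, which 0.233, 0.17 and 0.382% of all promoters held). A match describes letters and not a bound site, and sequence farther away was not searched.

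Levels are the authors' FPKM (fragments per kilobase of transcript, scaled to the mapped fragments of the library), which have 2 decimals and a lowest value of 0.01. The files hold no counts, but scarce transcripts move in steps of 1 fragment, and these steps gave depths of 9250000 fragments in control male, 8950000 in control female, 9180000 in BPA male and 8990000 in BPA female. From these depths each level was turned into an estimated number of fragments, with a 95% interval that covers counting error only. For log2 ratios of BPA to control, 0.5 was first added to every FPKM, which makes the ratios of scarce genes smaller. Within a sex, 1 library stood against 1, so those ratios have no replicate check and no test, and they compare libraries and not conditions. With the sexes combined, the male and female library of a treatment served as its 2 replicates in limma, fitted on the 13163 rows whose mean reached 1 FPKM. Male and female pups of a treatment may come from the same litters, and the fit took their libraries as independent.

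In both sexes, 7 of the 9 genes were lower in the BPA library than in the control library, 1 (Aldh1a1) was higher and 1 (Rdh10) differed in sign between the sexes, while 38.8% of all rows listed in the 4 libraries were lower in both. For 6 of the 9 (Aldh1a2, Rbp4, Crabp1, Crabp2, Cyp26b1 and Stra6), both BPA libraries lay below both control libraries, which held for 30.9% of those rows. Aldh1a1 had both BPA libraries above both controls, as 17.1% of all rows did. The median log2 ratio of the 9 genes was -0.21 for the male pair and -0.62 for the female pair, against -0.04 in each sex over all rows of the limma fit. None of the 9 genes reached an absolute log2 ratio of 1 in males, where 4.28% of rows did (2.53% toward lower levels). In females, Aldh1a2, Crabp2 and Rbp4 did so, 3 of the 9 against 5.15% of rows, and all 3 were lower with BPA, as 3.51% of rows were.

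**Figure D1:**
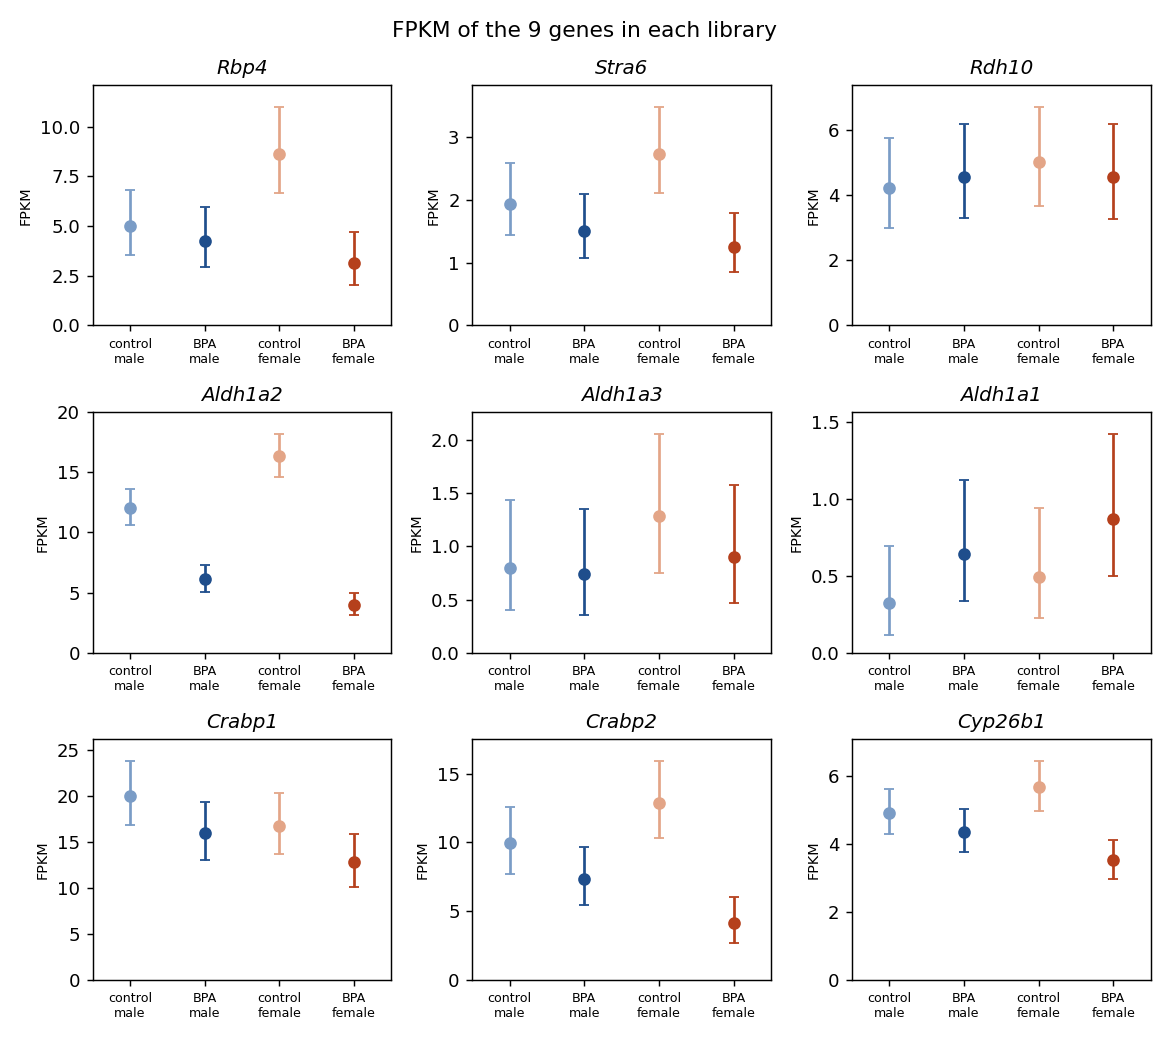
FPKM of each of the 9 genes (vertical axes, each from 0) in the 4 libraries (horizontal axes). Points are single libraries and bars are 95% Poisson intervals of the estimated fragments, which cover counting error only. Aldh1a2 ran from 12.03 and 16.36 in the controls to 6.11 and 3.96 with BPA, while Rdh10 stayed between 4.21 and 5.02.

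Transport and uptake come first in the pathway. Rbp4, the retinol carrier, had 4.99 FPKM in control male, 8.65 in control female, 4.26 in BPA male and 3.16 in BPA female. The female control stood apart from the other 3 libraries, and the level with BPA was 85.4% of control in males (counting interval of the ratio 0.52 to 1.39) and 36.5% in females (0.22 to 0.595). Within the controls alone, the female library had 1.73 times the male level (1.14 to 2.63). Stra6, the receptor through which cells take retinol from RBP4, had 1.93 FPKM in control male, 2.73 in control female, 1.51 in BPA male and 1.25 in BPA female. The BPA libraries were the lowest pair, at 78.2% of control in males (ratio 0.492 to 1.22) and 45.8% in females (0.288 to 0.718). These Stra6 levels rest on 30 to 65 estimated fragments and those of Rbp4 on 24 to 65.

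Rdh10, which carries out the first oxidation of retinol in embryos, had the limma log2 ratio nearest to 0 of the 7 genes tested. It had 4.21 FPKM in control male, 5.02 in control female, 4.57 in BPA male and 4.55 in BPA female, so both BPA libraries lay between the controls. The ratio was 1.09 in males (0.685 to 1.72) and 0.906 in females (0.579 to 1.42), and 39 to 45 fragments leave room for differences of that size.

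Aldh1a2, the main retinoic acid synthase of the embryo, had the lowest BPA to control ratio of the 9 genes in each sex. Its FPKM was 12.03 in control male, 16.36 in control female, 6.11 in BPA male and 3.96 in BPA female, on 244, 321, 123 and 78 estimated fragments. Both BPA libraries lay far below both controls, at 50.8% of control in males (ratio 0.406 to 0.633) and 24.2% in females (0.186 to 0.311). The log2 ratio was -0.92 in males and -1.92 in females, which is at percentile 1.2 and 0.2 of the genes that have an NCBI Gene ID and reached a mean of 1 FPKM. Aldh1a2 was the only one of the 9 whose counting interval lay wholly below 1 in males, and 1 of 5 (with Rbp4, Crabp2, Cyp26b1 and Stra6) in females. Over all rows listed, 18.7% had such an interval in males and 20.1% in females.

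Both other retinaldehyde dehydrogenases were scarce. Aldh1a3 had 0.8 FPKM in control male, 1.29 in control female, 0.74 in BPA male and 0.9 in BPA female, and the treatments overlapped. Aldh1a1 had 0.32, 0.49, 0.64 and 0.87 FPKM in control male, control female, BPA male and BPA female, so it was higher in BPA by ratios of 2.0 in males and 1.78 in females. These levels rest on 6 to 16 fragments for Aldh1a1 and 10 to 17 for Aldh1a3, and the counting intervals of all 4 ratios included 1 (for Aldh1a1, 0.7 to 6.54 in males and 0.736 to 4.54 in females). Their mean FPKM was below 1, so they were not in the main limma fit. In the fit with a minimum of 0.1, the limma log2 ratio was 0.47 for Aldh1a1 (adjusted p = 0.4) and -0.21 for Aldh1a3 (adjusted p = 0.727).

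Since FPKM is per length, the 3 dehydrogenases can be summed. Their sum was 13.2 FPKM in control male, 18.1 in control female, 7.49 in BPA male and 5.73 in BPA female. Aldh1a2 made up 91.5 and 90.2% of it in the control male and female libraries, 81.6% in BPA male and 69.1% in BPA female. Aldh1a2 was most of this sum in every library, so its share largely follows its own level. Aldh1a1 and Aldh1a3 together held the rest, on 6 to 17 fragments each, and no interval was computed for the shares.

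Among the binding proteins, Crabp1 was the most abundant of the 9 genes in every library. It had 20.05 FPKM in control male, 16.71 in control female, 15.96 in BPA male and 12.78 in BPA female. The BPA libraries were lower in both sexes by nearly the same ratio, 0.796 in males (0.608 to 1.04) and 0.765 in females (0.565 to 1.03), and here the male library of each treatment was the higher one. Crabp2 had 9.93 FPKM in control male, 12.87 in control female, 7.31 in BPA male and 4.11 in BPA female. Its order of libraries was that of Aldh1a2, and its level with BPA was 73.6% of control in males (ratio 0.499 to 1.08) and 31.9% in females (0.199 to 0.499). The ratio of Crabp2 to Crabp1, as levels per length, was 0.495 in control male (0.363 to 0.67), 0.77 in control female (0.571 to 1.04), 0.458 in BPA male (0.319 to 0.65) and 0.322 in BPA female (0.2 to 0.503). The intervals of the female libraries did not overlap, and those of the male libraries nearly coincided.

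Cyp26b1, the cytochrome P450 that degrades retinoic acid, had 4.92 FPKM in control male, 5.68 in control female, 4.37 in BPA male and 3.53 in BPA female, on 150 to 241 fragments. Both BPA libraries were the lowest, at 88.8% of control in males (ratio 0.725 to 1.08) and 62.1% in females (0.502 to 0.762). The synthesis gene Aldh1a2 differed more than this breakdown gene. The ratio of Aldh1a2 to Cyp26b1 was 2.45 in control male (2.02 to 2.95), 2.88 in control female (2.43 to 3.42), 1.4 in BPA male (1.11 to 1.76) and 1.12 in BPA female (0.843 to 1.49). In each sex the intervals of the control and the BPA library did not overlap.

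**Figure D2:**
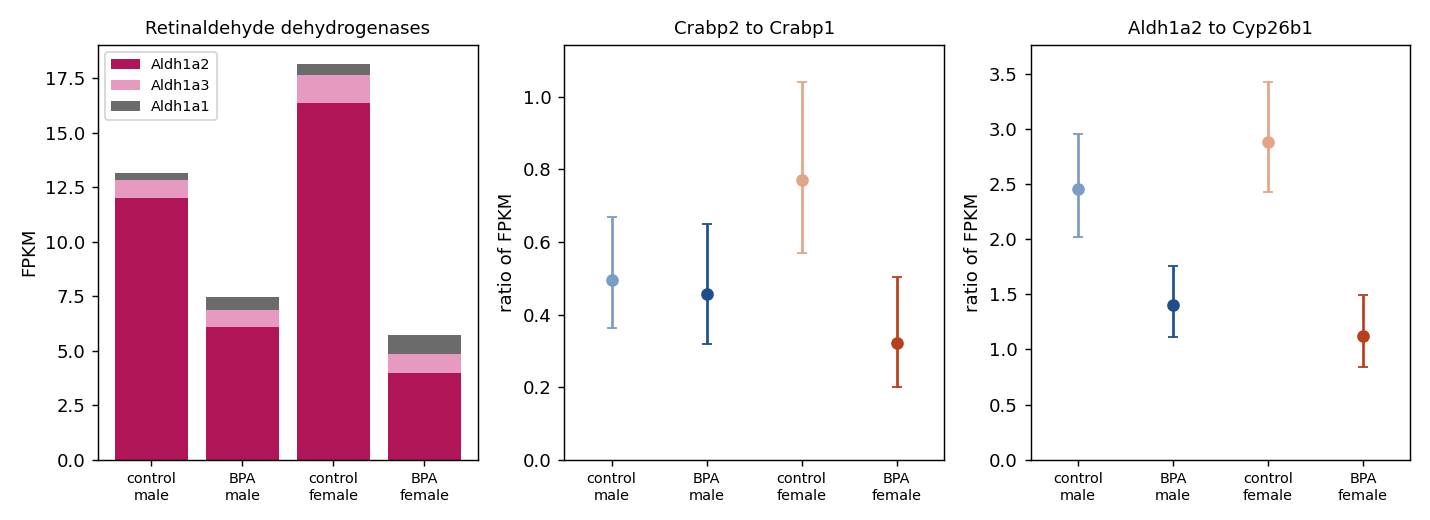
Left, FPKM of the 3 retinaldehyde dehydrogenases stacked for each library; middle and right, ratios of FPKM between genes of opposite or parallel roles, with 95% exact binomial intervals that cover counting error only. The Aldh1a2 part of the bar is 16.36 FPKM in control female and 3.96 in BPA female, and the ratio of Aldh1a2 to Cyp26b1 is 1.4 and 1.12 in the BPA libraries and 2.45 and 2.88 in the controls.

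In the controls, the order of levels was Crabp1, Aldh1a2, Crabp2, then Rbp4, Cyp26b1, Rdh10 and Stra6, and last Aldh1a3 and Aldh1a1. Neighbors with overlapping counting intervals in control male were Aldh1a2 and Crabp2 (10.6 to 13.6 and 7.7 to 12.6 FPKM), then Rbp4, Cyp26b1 and Rdh10, then Aldh1a3 and Aldh1a1, and the limits of Stra6 and Aldh1a3 met at 1.44. In control female they were Crabp1 and Aldh1a2 (13.7 to 20.3 and 14.6 to 18.2 FPKM), Aldh1a2 and Crabp2 (10.3 to 15.9), Crabp2 and Rbp4, Cyp26b1 and Rdh10, and Aldh1a3 and Aldh1a1. In BPA female, Rdh10 (4.55), Crabp2 (4.11), Aldh1a2 (3.96), Cyp26b1 (3.53) and Rbp4 (3.16) had come within a narrow range, and their intervals all overlapped.

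With the sexes combined, 7 of the 9 genes could be tested and 0 passed a Benjamini-Hochberg adjusted p under 0.05 in limma, which 0.562% of the 13163 rows did (0.456% as lower). An unadjusted p under 0.05 was reached by 4 of the 7, against 17.3% of all rows. That number was 2 with no minimum FPKM and 6 on rows with an NCBI Gene ID. The log2 ratio from limma was -1.42 ± 0.227 (standard error) for Aldh1a2 (adjusted p = 0.07), -0.98 ± 0.262 for Crabp2 (adjusted p = 0.163) and -0.76 ± 0.271 for Rbp4 (adjusted p = 0.236). Crabp1 (-0.35, adjusted p = 0.276) also had an unadjusted p under 0.05, and Stra6 (-0.58), Cyp26b1 (-0.39) and Rdh10 (-0.01) had adjusted p of 0.315, 0.3 and 0.977. The call depends on which rows share the fit. When limma was fitted on the 10632 rows with an NCBI Gene ID alone, leaving out transcripts assembled by the sequencing provider, 4.49% of rows passed (3.79% as lower), and so did Aldh1a2 (adjusted p = 0.00393) and Crabp2 (adjusted p = 0.0372), both with the log2 ratios above. No assembled row was annotated with a RefSeq protein of any of the 9 genes (0 rows).

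**Figure D3:**
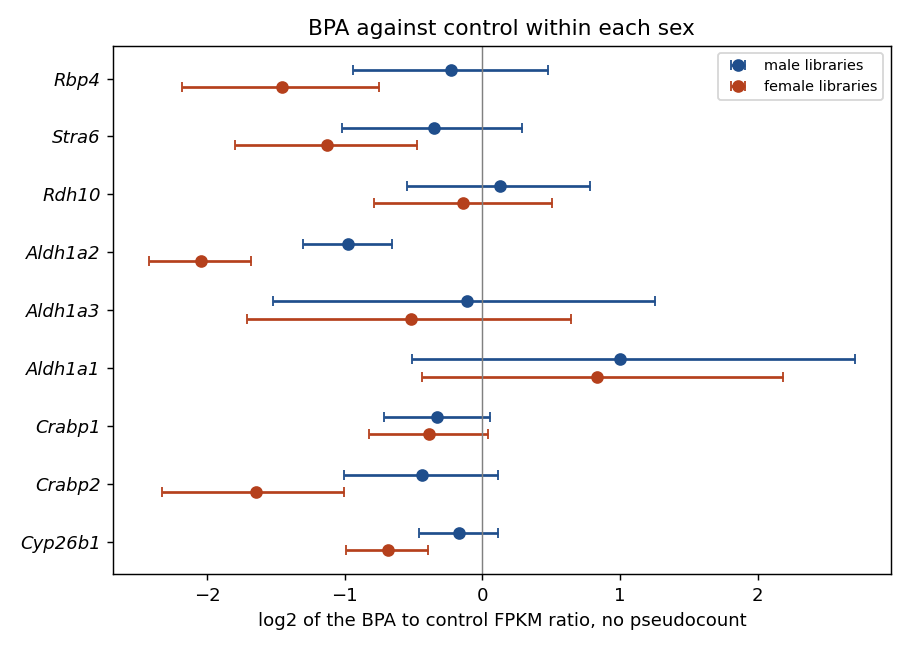
BPA to control ratio of FPKM on a log2 axis, without a pseudocount, for the 9 genes in the male and the female pair of libraries. Points are ratios of 1 library to 1, bars are 95% exact binomial intervals for counting error only, and the female point lies to the left of the male point for all 9 genes.

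The BPA to control ratio was lower in females than in males for all 9 genes, barely so for Aldh1a1, and for 52.4% of all rows listed in the 4 libraries. The female ratio divided by the male ratio was 0.477 for Aldh1a2 (normal approximation to the counting error, 95% interval 0.343 to 0.662), 0.428 for Rbp4 (0.221 to 0.827), 0.434 for Crabp2 (0.246 to 0.766) and 0.7 for Cyp26b1 (0.528 to 0.928). An interval wholly below 1 was thus found for 4 of the 9 genes and for 10.8% of all rows with fragments in the 4 libraries. For the other 5 genes the interval included 1, with 0.585 for Stra6 (0.318 to 1.08) and 0.961 for Crabp1 (0.65 to 1.42). For Aldh1a2, the female control was 1.36 times the male control (1.15 to 1.61), and the female BPA library was 0.648 times the male (0.481 to 0.867), so the libraries of the sexes differed in both treatments and in opposite directions. Crabp2 had corresponding ratios of 1.3 (0.929 to 1.81) and 0.562 (0.338 to 0.918). With 1 library per sex and treatment, a sex difference in the response and a difference between single libraries cannot be told apart.

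The genes with an NCBI Gene ID whose levels over the 4 libraries lay closest to those of Aldh1a2, by the root mean square distance of centred log2 values, were Sned1 (0.0486), Efemp1 (0.0603), Ogn (0.0719), Col3a1 (0.0782) and Emp1 (0.0784). Sned1, Efemp1 and Ogn encode extracellular matrix proteins, and Col3a1 encodes a fibrillar collagen. Ogn and Col3a1 are also in the list of meningeal fibroblast markers described below, so the 2 comparisons are not independent. Col3a1 had 40.16 FPKM in control male, 54.98 in control female, 19.31 in BPA male and 15.06 in BPA female, the order of libraries of Aldh1a2. The genes closest to Crabp2 were Ptrf (0.0711), Zswim7 (0.0768), Fmo1 (0.0787), Tf (0.0816) and Apol3 (0.0826), and those closest to Rbp4 were Rgs14 (0.0613), Angptl2 (0.0745), PVR (0.0767), Klf4 (0.0768) and Itgb4 (0.078). Likeness over 4 libraries is a description and has no test.

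Among other genes that take up, store, oxidize, bind or break down retinoids, 24 of 38 were listed in the 4 libraries and 14 were in the limma fit, and 0 passed in either direction (2 had an unadjusted p under 0.05). Their median log2 ratio was -0.03 in males and -0.16 in females. Dhrs3, Cyp26a1 and Meis2 are named here after their values were seen. Dhrs3, a retinaldehyde reductase, differed little, with 10.52, 9.7, 10.79 and 10.54 FPKM in control male, control female, BPA male and BPA female (adjusted p = 0.729). Cyp26a1, which like Cyp26b1 degrades retinoic acid, had 2.68, 3.3, 3.6 and 2.56 FPKM in the same order (adjusted p = 0.962), and the treatments overlapped. Of the 24 genes, 10 were lower and 5 higher in both sexes, a part lower that is near the 38.8% of all rows.

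Of 20 genes that respond to retinoic acid in textbook accounts, 13 were listed, 10 were in the fit, and 1 passed, with a lower level in BPA. That gene was Tgm2, a transglutaminase, which had 8.02 FPKM in control male, 8.23 in control female, 3.74 in BPA male and 3.82 in BPA female, and so fell to 46.6 and 46.4% of the male and female controls (limma log2 ratio -1.01, standard error 0.123, adjusted p = 0.043). Rarres2, which encodes the adipokine chemerin, had 5.82 FPKM in control male, 7.31 in control female, 2.51 in BPA male and 2.58 in BPA female (log2 ratio -1.21, adjusted p = 0.0509, and 0.00395 on rows with an NCBI Gene ID). Meis2, a homeobox gene, lay between 129.04 and 134.89 FPKM in all 4 libraries. The median log2 ratio of the list was 0.04 in males and -0.18 in females. In both sexes, 5 of the 13 genes were lower and 3 higher, and 38.8% of all rows were lower.

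Markers of meningeal fibroblasts were low in the same libraries as Aldh1a2. All 18 of the list were listed and lower in BPA in both sexes, 13 of the 17 in the fit passed as lower and 0 as higher, and the median log2 ratio was -1.15 in males and -1.79 in females. The list was written with earlier results of these data known, so neither its direction nor the size of its fall is independent evidence. Its summed FPKM was 577 in control male, 732 in control female, 257 in BPA male and 178 in BPA female, hence 44.6% of control in males and 24.4% in females. The corresponding values of Aldh1a2 were 50.8 and 24.2%. As a percent of the summed list, Aldh1a2 stood at 2.08 in control male, 2.24 in control female, 2.37 in BPA male and 2.22 in BPA female, a nearly constant share. With Ptgds and Igf2 left out of the sum, which together made up much of it, the share was 3.98, 4.67, 4.71 and 4.06% in the same order. Crabp2 ran at 1.72, 1.76, 2.84 and 2.3% of the full sum, Rbp4 at 0.865, 1.18, 1.66 and 1.77%, and Stra6 at 0.334, 0.373, 0.587 and 0.7%, so these 3 were higher relative to the list in the BPA libraries, and so were Crabp1 (3.47, 2.28, 6.2 and 7.16%), Cyp26b1 (0.852, 0.776, 1.7 and 1.98%) and Rdh10 (0.729, 0.686, 1.78 and 2.55%). Of the 7 genes in the limma fit, Aldh1a2 was the one whose share of the full sum differed least between treatments. With Ptgds and Igf2 left out, that share was higher with BPA in males and lower in females. No interval was computed for these shares. In whole tissue, fewer cells of a type and less RNA per cell cannot be told apart, and the part of meningeal tissue in the levels of the members was not tested.

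**Figure D4:**
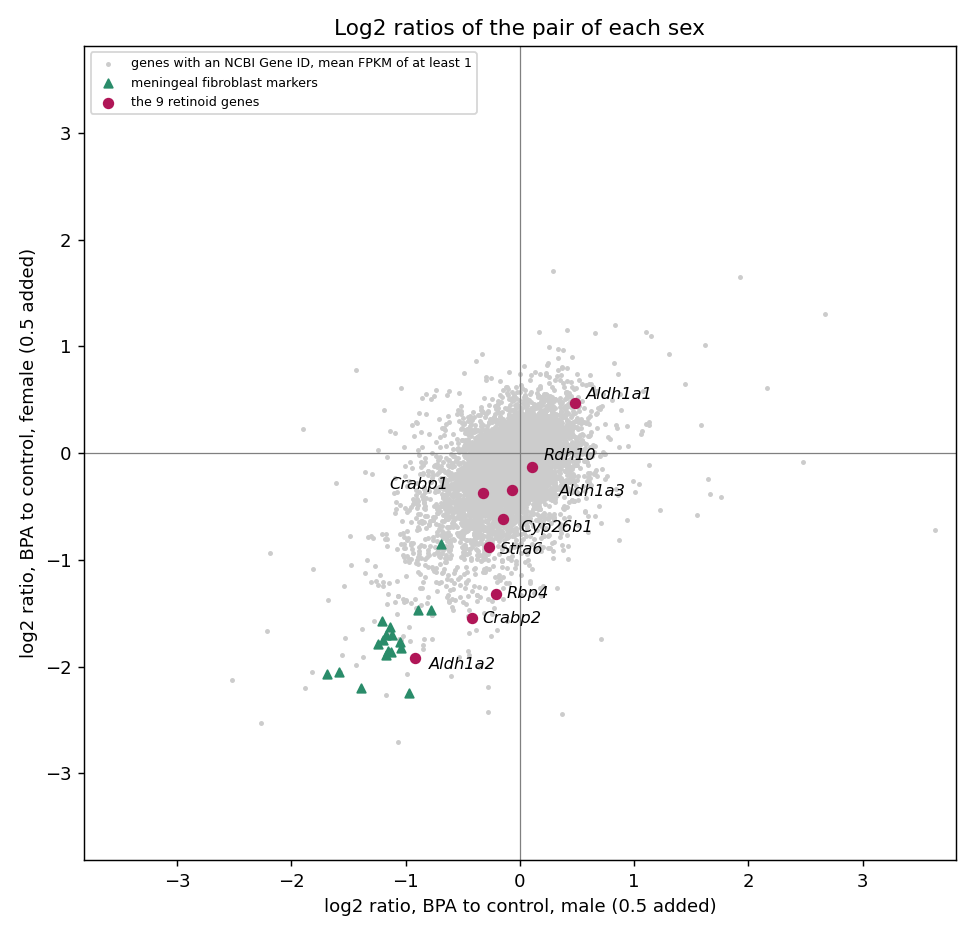
Log2 ratio of BPA to control in males (horizontal axis) and females (vertical axis), with 0.5 added to each FPKM. Grey points are the genes that have an NCBI Gene ID and reached a mean of 1 FPKM, triangles are the 18 meningeal fibroblast markers and dark points the 9 retinoid genes. Aldh1a2 lies at -0.92 and -1.92, beside the markers, and Rdh10 at 0.11 and -0.13, near the origin.

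Markers of other cells that could carry retinoid genes were measured alongside. The 6 endothelial markers were lower in both sexes (median log2 ratio -0.36 in males and -0.65 in females, 0 of 6 passing in the fit on all rows and 3 in that on rows with an NCBI Gene ID), with a sum at 82.3 and 61.3% of control. The 5 astrocyte markers were also lower in both (-0.5 and -0.79, 0 and 4 of 5 passing), with a sum at 77.7 and 62.8%. The 7 choroid plexus markers listed, a tissue in which Rbp4 and Stra6 are also known, summed to 2.6 FPKM in control male, 3.4 in control female, 1.74 in BPA male and 1.34 in BPA female (66.9 and 39.4% of control). Most of it was Kcnj13 (1.25, 1.67, 0.45 and 0.46 FPKM in that order) and Aqp1 (0.8, 1.18, 0.72 and 0.35), and 3 of the 7 were lower and 1 higher in both sexes. None reached a mean of 1 FPKM and so none was in the fit, Kl and Folr1 were at the lowest value of 0.01 in control male, and no value of Ttr, the best known marker, was used here. The 8 markers of GABA interneurons, cells in which Crabp1 and Cyp26b1 are known, had median log2 ratios of -0.06 and -0.17 and 0 passed (3 as lower on rows with an NCBI Gene ID). Of the 10 markers of striatal projection neurons, 7 were higher and 1 was lower in both sexes, with a sum at 134 and 142% of control and medians of 0.41 and 0.47, and 1 of the 9 in the fit passed as higher (3 on rows with an NCBI Gene ID). The part of any of these cells in the levels of the 9 genes was not tested.

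**Figure D5:**
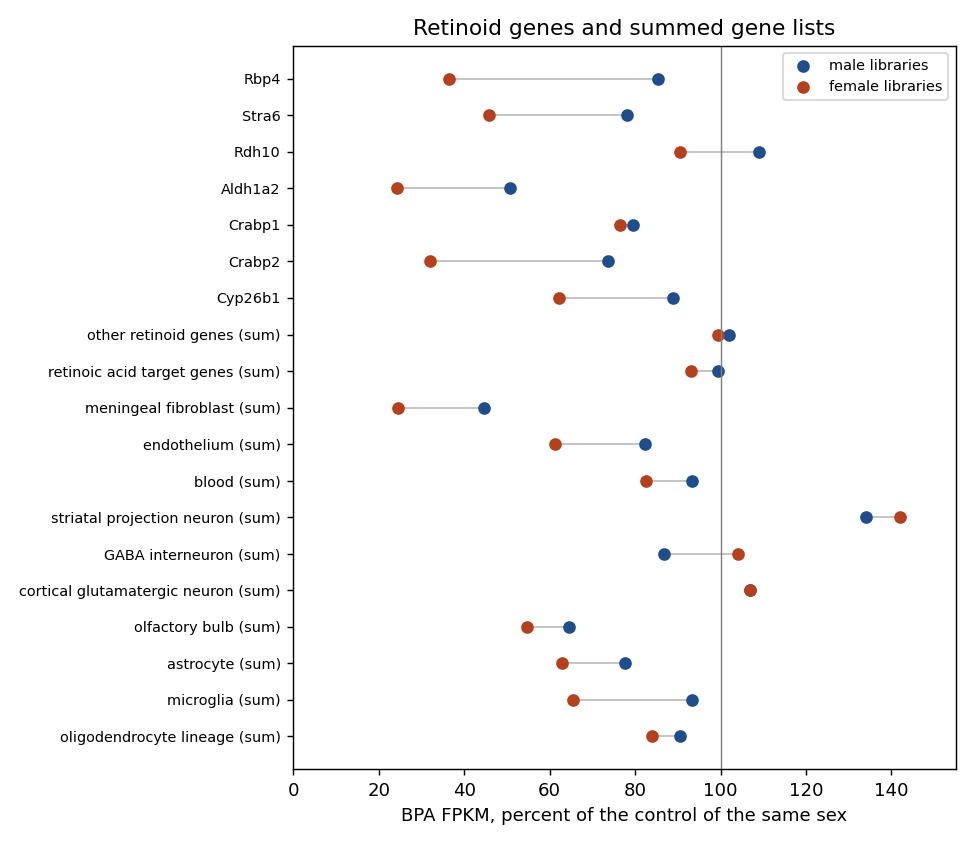
BPA level as a percent of the control of the same sex (horizontal axis), for the 7 retinoid genes in the limma fit and for the summed FPKM of gene lists. Points are single pairs of libraries without error bars, and a line joins the sexes. Aldh1a2 (50.8 and 24.2%) lies closest to the meningeal sum (44.6 and 24.4%), and the cortical glutamatergic sum is at 107% in both sexes.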

How the data were processed

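RNA-seq libraries of the frontal cortex of newborn rats were compared, 1 for each sex and treatment (4 libraries). Per the methods of the study, reads left after cleaning were aligned with Bowtie 2 to the rat genome (Rnor_6.0) and quantified with RSEM. The submitters' processing notes also name HISAT. Their versions are not given in the sources used here. The files deposited hold FPKM, which the authors had already divided by transcript length and depth, and no counts. Depth was recovered from 1883 to 1952 scarce rows per library, as the total that turned their FPKM, multiplied by the length less 60 bases, into values nearest to whole fragments. Of these rows, 86.1 to 87.8% then lay within 0.1 of a whole number. Intervals from these fragments (95%, exact Poisson or binomial unless stated) cover counting error only.

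Treatments were compared in R 4.3.3 by limma 3.58.1, on the log2 of FPKM plus 0.5, for rows whose mean reached 1 FPKM, with treatment as the only term, a trend in the prior variance, 2 residual degrees of freedom and Benjamini-Hochberg adjustment over all rows. Whether a library is a pool of the 3 pups that the methods name per sex and treatment, or fewer, is not stated, so p-values measure only the spread between these libraries. The recovery and the fit were tested on simulated data. Those data used the same 60 bases, and the same spread for every row with no sex difference. They could therefore not check these settings or the use of the sexes as replicates. Other steps used Python 3.11.15, numpy 2.4.6, pandas 2.3.3, scipy 1.17.1 and matplotlib 3.10.9. Symbols came from the files or, for list genes, from the RefSeq table of GRCr8. Promoters were matched by NCBI Gene ID. The genes, the lists and the tests were chosen with earlier results of these data known. The rule for named genes took the 9 genes, genes of both retinoid lists that passed or reached an absolute log2 ratio of 1, and the 5 genes nearest to each of the 3 with the largest limma log2 ratios. Alternatives changed the pseudocount, the minimum, the rows, the scaling, the trend and the libraries used, or added sex as a block.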

Additional observations from a re-analysis of the deposited data

Results flagged for a closer look

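For Rdh10, the male and female pairs of libraries moved in opposite directions, with a log2 ratio of BPA to control of 0.11 in males and -0.13 in females (female minus male -0.23). The difference was not tested, and the counting interval of each ratio included 1.

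Akr1b10, an aldo-keto reductase that can reduce retinaldehyde, was also opposite in sign, from 3.88 to 1.63 FPKM in males (log2 ratio -1.04) and from 1.45 to 2.48 in females (0.61), a difference of 1.65. It was not tested either. The gene belongs to a family of similar genes, and how reads shared among them were assigned was not examined.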

How the results depend on the processing

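Of the 7 genes tested in the main fit, 0 passed, and the number was 2 (Aldh1a2 and Crabp2) on rows with an NCBI Gene ID and with FPKM summed per Symbol, and 0 under all other alternatives, each library left out included. A Symbol has 1 row, so the summed fit is nearly that on rows with an NCBI Gene ID. Over all fits with 4 libraries, Aldh1a2 kept a log2 ratio between -1.49 and -1.34 (adjusted p 0.00393 to 0.19) and Crabp2 one between -1.03 and -0.91 (0.0372 to 0.288). Without 1 library, they ran from -1.7 to -1.14 (0.13 to 0.289) and from -1.36 to -0.6 (0.157 to 0.464). For Rbp4 the range without 1 library was -1.13 to -0.4, for Stra6 -0.78 to -0.37, for Cyp26b1 -0.52 to -0.25 and for Crabp1 -0.5 to -0.19. The unadjusted p of Crabp1 in limma, 0.0453, ran from 0.0064 (sex as a block) to 0.239 (without BPA female) over the alternatives, with 0.229 without control male and 0.0923 with scaling to the same median. The Rdh10 log2 ratio reversed from -0.01 to 0.05 with scaling to the same median and ran from -0.13 to 0.1 without 1 library (0.1 without control female), with adjusted p of 0.805 or more.

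The number of rows passing in limma was 74. It was 477 on rows with an NCBI Gene ID (2244 with an unadjusted p under 0.05) and the same per Symbol, 13 with a minimum of 0.1, 0 with no minimum (2628 unadjusted), 0 without the trend (2055 unadjusted), 86 with sex as a block and 0 to 6 without 1 library. Rows past an absolute log2 ratio of 1 numbered 718 in males, and 1804 with a pseudocount of 0.1, 397 with 1, 404 among rows whose mean reached 1 FPKM and 201 on NCBI Gene IDs or per Symbol. In females they numbered 867, and 2121, 504, 529 and 329 under the same alternatives. The cause of these shifts was not tested. Depth limits Aldh1a1 and Aldh1a3, at 6 to 17 fragments, most.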

Other observations

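Single genes of several marker lists outside the retinoid pathway also passed the test. Of 3 olfactory bulb markers listed, Cdhr1 fell from 41.1 and 44.48 FPKM in the male and female controls to 10.77 and 9.29 in the BPA libraries (adjusted p = 0.00834 from limma), and Reln did not pass (adjusted p = 0.815). Tbx21 was too scarce for the fit and was not tested, at 1.74 and 0.85 FPKM in the male and female controls and 0.01 and 0.05 with BPA. Among 7 cortical glutamatergic markers, Slc17a7, a vesicular glutamate transporter, fell from 51.08 and 56.97 FPKM in the male and female controls to 30.0 and 32.17 with BPA (adjusted p = 0.0274), while Neurod2 rose from 45.76 and 45.38 to 61.95 and 67.45 (adjusted p = 0.0481). Penk, the enkephalin precursor of striatal neurons, rose from 13.92 and 14.45 to 23.45 and 21.51 (adjusted p = 0.046). These genes were named after their values were seen.

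The summed FPKM of 5 microglial markers was 93.4% of control in males and 65.4% in females, that of 5 oligodendrocyte lineage markers 90.4 and 84.0%, and that of 5 blood markers 93.2 and 82.5%, and 0 genes of these lists passed in limma on all rows. An unadjusted p under 0.05 was reached by 0, 2 and 1 of them, and 1 blood marker passed on rows with an NCBI Gene ID. The 2 midbrain dopamine markers listed summed to 0.47 to 1.35 FPKM and were not in the fit.

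In the files, the KEGG entry beside Stra6 reads collagen type XXII, whereas its protein description names the retinol receptor, and Stra6 was identified here by its Symbol and NCBI Gene ID alone.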
